A study of Mus musculus with 2 samples.

Results

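Captured methylated DNA was described here over the olfactory receptor genes of chromosome 2, protein-coding genes whose symbol starts with Olfr and whose gene start lies between 85 and 91 Mb of the mm10 build. The rule found 222 genes of 21896 protein-coding genes in the annotation, from Olfr987 at 85330967 to Olfr1274, which ends at 90401674. Another 888 Olfr genes lay elsewhere in the genome. Each gene was read over its span plus 1 kb on each side. The nearest Olfr gene before the interval was Olfr368, which starts at 37331749 and had 146 wildtype and 615 knockout counts in 10 windows. Olfr1274, the last gene inside, had 91 and 27 counts in 4 windows. Olfr987, the first one inside, and Olfr1275, the next one beyond the interval at 111230853, had no listed window.

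Olfactory receptors are G protein-coupled receptors of the sensory neurons of the nose. Each mature neuron transcribes a single allele of a single receptor gene, while the other genes of the family stay silent in compact chromatin. The genes lie in dense clusters, their coding sequence is mostly held in a single exon, and they lack CpG islands. A few receptors of the family are also transcribed in male germ cells.

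The study held 2 libraries of testis DNA from C57BL/6 mice, 1 labelled wildtype and 1 labelled Kaiso knockout, the latter from third-generation offspring whose males are sterile. Kaiso, the product of Zbtb33, is a zinc finger protein that binds methylated CpGs and the sequence TCCTGCNA. Sheared DNA was captured on the methyl-CpG binding domain of MBD2 and sequenced, so the measure is the amount of captured fragments and not the methylation of single CpGs. Testis is a mixed tissue, and a change in its cell types and a change of methylation within a cell type cannot be told apart. The deleted part of the allele, the ages, and whether DNA of several animals was pooled are not given in the sources used here.

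The description of the sample labelled knockout also uses the word wildtype, so the genotype label alone set the group. Zbtb33 had 303 wildtype and 83 knockout counts in 16 windows (log2 ratio -2.04, interval -2.80 to -1.31), which reads captured DNA and is a weak check of the label. The libraries held 87710791 wildtype and 98549116 knockout reads. The deposited table lists 2537435 windows of 100 bp, each with at least 1 CpG and a p-value of at most 0.05, and a window that is not listed was not shown to be equal. A read counts in each window it touches, so 4 window counts were taken as 1 fragment. The same division was used where fewer adjacent windows were listed. Fragments of receptors with 1 or few windows are thus undercounted, and their intervals are wider than their counts alone would give. Ratios are knockout over wildtype after scaling by library reads, and the intervals beside them are exact 95% binomial (Clopper-Pearson) intervals of counting error. With 1 library per genotype there was no replicate and no test of the genotypes. PCR copies are not independent molecules, and the selection of windows on p pushes ratios away from 1.

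Listed windows were sparse over these receptors. Of the 222 genes 77 had a listed window (34.7%) and 145 had none, against 43.0% with a window among the other Olfr genes and 90.8% among all protein-coding genes. The receptor regions are short, with a median gene length of 945 bp against 17149 bp for all protein-coding genes. Per kb the density of listed windows was 0.316 in these receptors, 0.626 in the other Olfr genes and 1.21 in all protein-coding genes. The 247 windows over the receptors, spread over 804 kb, had a median of 20 wildtype and 12 knockout counts, against 39 and 40 in the whole table. In authors' RPKM those receptor medians were 2.28 and 1.22.

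Of the receptors with a window, 45 reached 20 fragments over both libraries, and 12 of them (26.7%) were called higher and 20 (44.4%) lower in the knockout library. Calls were made at 2-fold in either direction, where the interval also left out equality. The background over 19221 protein-coding genes was 9.64% called higher and 5.64% called lower. The other Olfr genes, which have about the same length (median 951 bp), had 79 of 297 higher (26.6%) and 81 lower (27.3%). Among the Olfr genes of chromosome 7 from the region that holds the class I receptors 17 of 66 were higher and 14 lower, and among those of chromosome 17 it was 7 of 18 and 3. The share of lower calls on chromosome 2 was thus above that of the other Olfr genes, a difference that 1 library per genotype does not allow to test. Under scaling within classes of CpG number 14 receptors were higher and 10 lower, so that 58.3% of the calls were higher in place of 37.5%. With 2 windows taken as 1 fragment 61 receptors reached the minimum in place of 45, and 13 of these were higher and 35 lower.

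Few of the 45 receptors lay near equality, where the listing on p leaves out windows. The median log2 ratio of the 45 was -0.88 (order-statistic interval -1.36 to 0.57), with 20 above 0 and 25 below, while the median was 0.44 in the other Olfr genes and 0.31 in all protein-coding genes. With windows of a deposited p-value of at most 0.01 the receptor median turned to 0.44, over 33 receptors. Of the 59 receptors with more than 1 window 16 had all windows higher and 39 all lower, and 4 held windows of both directions. The other 18 had a single window. Adjacent windows share fragments and are not independent. Summed over all 247 windows the wildtype library had 6199 counts and the knockout library 7221, a log2 ratio of 0.05 (-0.05 to 0.15).

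**Figure D1:**
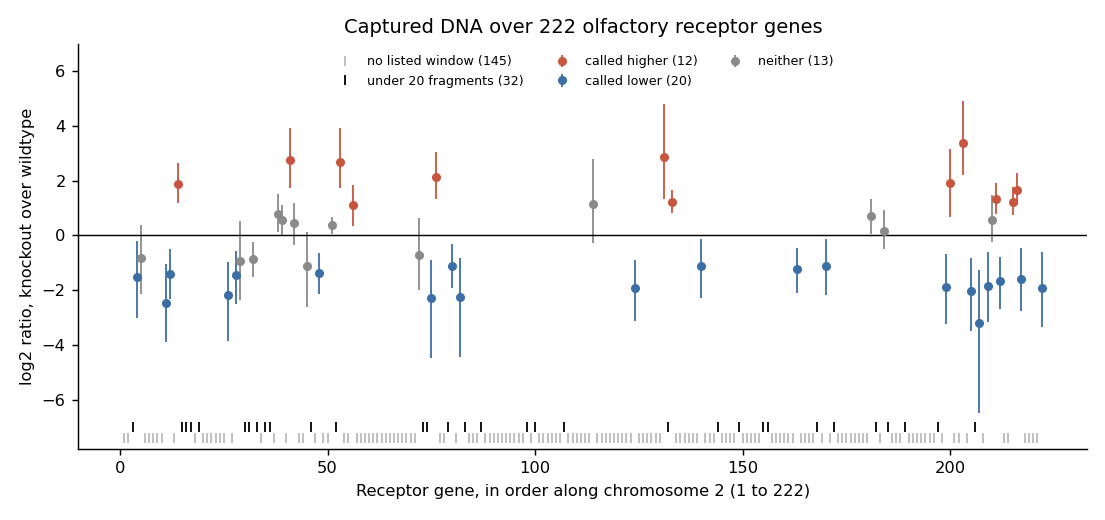
The log2 ratio of knockout over wildtype (vertical axis) is drawn for the 45 receptors with at least 20 fragments in gene order along chromosome 2 (horizontal axis), with bars for the 95% counting interval. The 12 higher and 20 lower receptors lie off the line at 0 by the rule of the calls. Ticks at the bottom mark the 32 receptors under 20 fragments and the 145 without a listed window.

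In 7 of the 12 higher receptors every listed window lay within the gene span and was higher in the knockout library. Olfr48, which spans 89844066 to 89844971, went from 25 wildtype to 289 knockout counts over 6 windows. Its windows ran from 2, 7, 6, 6, 4 and 0 wildtype counts to 24, 57, 68, 63, 45 and 32 knockout counts. The log2 ratio was 3.36 (2.22 to 4.91), the highest of the 45 receptors, and every knockout window, from 24 counts up, lay above the highest wildtype window of 7.

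Olfr1057, from 86374463 to 86375410 on the minus strand, had 37 wildtype and 267 knockout counts in 5 windows. Counting from the annotated start into the gene, its windows held 3, 4, 9, 10 and 11 wildtype counts and 41, 64, 66, 56 and 40 knockout counts. The ratio was 2.68 on the log2 scale (1.72 to 3.92), and the midpoints of all 5 windows lay within the first 500 bp of the gene. Olfr1163, from 88070365 to 88071407, had the fewest wildtype counts of the 12, 16 against 130 in the knockout library over 5 windows (2.85, 1.34 to 4.79).

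Olfr1098, from 86922583 to 86923530, had between 3 and 14 wildtype counts and between 16 and 60 knockout counts in each of its 7 windows (log2 ratio 2.12, 1.32 to 3.04). Olfr1009, from 85721407 to 85722351, had 84 wildtype and 352 knockout counts, and all 6 of its windows lay within its span at 443.5 bp or more from the start (1.90, 1.20 to 2.66). Olfr1264, from 90021138 to 90022064, had 151 wildtype and 431 knockout counts in 7 windows (1.35, 0.79 to 1.91). In Olfr1264 both libraries showed a hump over the same windows, with a top of 35 wildtype and 94 knockout counts. Olfr1062 was higher with 92 and 221 counts over 5 windows of its span (1.10, 0.36 to 1.86).

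In Olfr52, Olfr1166, Olfr1254 and Olfr1270 the higher windows lay downstream of the gene span. Olfr52, from 86181150 to 86182109, had 36 wildtype and 274 knockout counts (log2 ratio 2.76, 1.74 to 3.94), all in 6 windows on the downstream side, between 1458.5 and 1958.5 bp from the start. Olfr1166, from 88123360 to 88124993, had 275 and 724 counts in 6 downstream windows, whose mean of 4.5 CpGs was the highest among the 45 (1.23, 0.82 to 1.65). Olfr1254 had 2 downstream windows with 11 and 8 wildtype and 75 and 52 knockout counts, while its window within the gene went from 11 counts to 0. Over all 3 its ratio was 1.91 (0.68 to 3.16). Olfr32 and Olfr1270 overlap and share 8 windows, so their calls are not independent. Of these 8 windows 6 rose from between 12 and 17 wildtype to between 53 and 96 knockout counts, and the other two fell from 24 and 25 to 9 and 8. Olfr1270, from 90149019 to 90150036, had a ratio of 1.67 (1.12 to 2.27) and Olfr32 of 1.24 (0.76 to 1.76). The 6 higher windows lie within the span of Olfr32 but outside that of Olfr1270, whose span alone had -1.70 and fell under the minimum.

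**Figure D2:**
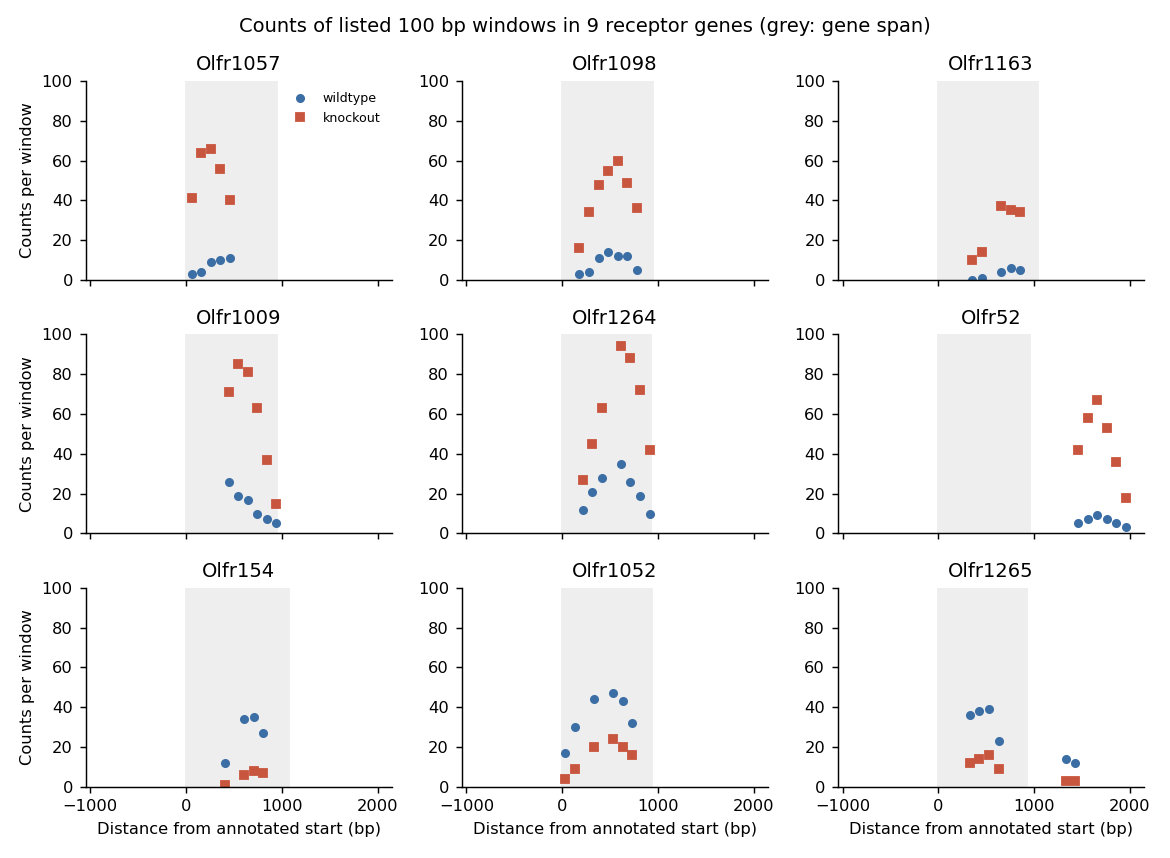
Counts of each listed 100 bp window (vertical axis) are drawn against its distance in bp from the annotated start (horizontal axis) for 9 receptors, with wildtype as circles, knockout as squares and the gene span in grey. In Olfr1057, Olfr1098, Olfr1163, Olfr1009 and Olfr1264 the knockout counts lie above the wildtype counts within the gene, in Olfr52 they do so downstream, and in Olfr154, Olfr1052 and Olfr1265 they lie below.

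In the lower receptors the knockout library held from 9 to 93 counts where the wildtype library held from 71 to 213. Over the 20 of them the wildtype library had between 17 and 53 counts per window (median 27) and the knockout library between 3 and 27.7 (median 8.5). For the 12 higher receptors the medians were 12 and 47.3. All 83 windows of the lower receptors went down. These receptors were picked by their summed ratio and their windows listed on p, so windows near equality were left out. Their CpG number was low, with a median of 1.75 per window against 2.18 in the higher receptors. In the whole table the share of higher windows rose from 37.8% at 1 CpG to 99.4% at 6 or more.

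Olfr1260, from 89977780 to 89978712, had 19, 30 and 24 wildtype counts in its 3 windows and 0, 3 and 6 knockout counts. Its log2 ratio of -3.19 (-6.49 to -1.28) was the lowest of the 45. Olfr154, from 85663377 to 85664455, fell from 108 to 22 counts in 4 windows of its span (-2.46, -3.90 to -1.03). Olfr1026, from 85923270 to 85924193, fell from 106 to 26 counts (-2.20, -3.85 to -0.97), and its windows went from 19, 29, 23 and 35 wildtype counts to 2, 4, 3 and 17. Of its windows the first 2 lay before the annotated start.

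Olfr1097, from 86890226 to 86892163, had 2 windows, both downstream, that went from 38 and 40 counts to 8 and 10 (log2 ratio -2.28, -4.50 to -0.91). Olfr1105, from 87033281 to 87034219, went from 77 to 18 counts in 3 windows (-2.27, -4.43 to -0.83). Olfr1258, a gene with a span of 8803 bp from 89921944, went from 102 to 28 counts in 6 windows (-2.03, -3.51 to -0.82). Olfr1157, from 87961952 to 87968257, went from 136 to 40 in 6 windows (-1.93, -3.12 to -0.88), and Olfr1274 from 91 to 27 in 4 (-1.92, -3.35 to -0.62).

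The other lower receptors had ratios above those. Olfr1253, from 89751870 to 89752826, went from 104 to 32 counts (log2 ratio -1.87, -3.22 to -0.68). Olfr1265, from 90036921 to 90037850, went from 162 to 57 (-1.68, -2.68 to -0.77), with 36, 38, 39 and 23 wildtype counts against 12, 14, 16 and 9 in the 4 windows of its body. Olfr1052, from 86297818 to 86298756, kept the same hump in both libraries, at a lower height in the knockout one: its 6 windows held 17, 30, 44, 47, 43 and 32 wildtype and 4, 9, 20, 24, 20 and 16 knockout counts (-1.36, -2.15 to -0.64). Scaling within CpG classes brought Olfr1265, Olfr1157 and Olfr1052 to -0.71, -0.87 and -0.49, each under 2-fold. The other 9 lower receptors were Olfr1262, Olfr1506, Olfr993, Olfr1029, Olfr1006, Olfr1211, Olfr1218, Olfr1179 and Olfr1102, with ratios from -1.84 to -1.11.

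Between the groups stood 13 receptors. Olfr1055, from 86346724 to 86347764, was the one with the most counts, 600 wildtype and 870 knockout in 8 windows, and its ratio was 0.37 (0.06 to 0.68). It had 2.63 listed windows per kb, where Olfr1270 had 2.65 and Olfr1264 2.39, the highest 3 values of the 45, and 7 of its 8 windows lay downstream of the gene. Those windows held between 44 and 91 wildtype counts, so the wildtype library was well filled there, and each was higher in the knockout library by less than 2-fold. Olfr1033, Olfr1030 and Olfr994, whose spans of 24169, 5487 and 6311 bp are among the longer ones, had the fewest windows per kb of the 45 and stood nearest the median. Olfr1033 went from 229 to 140 counts in 4 windows (-0.88, -1.52 to -0.24), Olfr1030 from 53 to 31 in 1 window, and Olfr994 from 66 to 42 in 1 window. Of the windows of Olfr1033 only 1, with 18 wildtype and 5 knockout counts, lay within its span, and the others lay in its flank. The remaining ones of the 13 were Olfr1048, Olfr1094, Olfr1234, Olfr1045, Olfr1263, Olfr1043, Olfr1231, Olfr1042 and Olfr152, with ratios from -1.13 to 1.15.

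The 32 receptors under 20 fragments held 60 windows, 56 of them lower and 4 higher in the knockout library. The same share was not computed for other genes under the minimum, so this split cannot be read as particular to these receptors. Their windows were poor in CpG, with a median of 1.33 per window, and 37.8% of all listed windows with 1 CpG were higher. With windows of at least 20 counts the share of higher windows over all receptors went from 36.8% to 44%. Olfr1101, from 86988242 to 86989174, had 15, 19, 21 and 14 wildtype counts in 4 adjacent windows and 0 knockout counts in each. Against a floor of 12 window counts, the 3 fragments that a count of 0 allows over the region, it was at least 6.46-fold lower, and its interval, which also holds the counting error of the wildtype library, ends at a log2 ratio of -2.21. Olfr1164 went from 57 to 2 counts in 3 windows around its start, a log2 ratio of -5.00. Its interval has an upper end of -1.90 and no lower end. The floor was used for counts of 0 alone, and these 2 counts lie under it. The ratio of Olfr1164 can therefore not be ranked against that of Olfr1101. Olfr1106 had 11 wildtype and 0 knockout counts in 1 window, which is under the floor and gives no fold. The 4 receptors with a higher window, Olfr1049, Olfr1095, Olfr1124 and Olfr1220, had 1 window each and between 15 and 29 knockout counts, and their intervals include 0. Low counts need a larger ratio to be listed, and its part in these values was not tested.

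**Figure D3:**
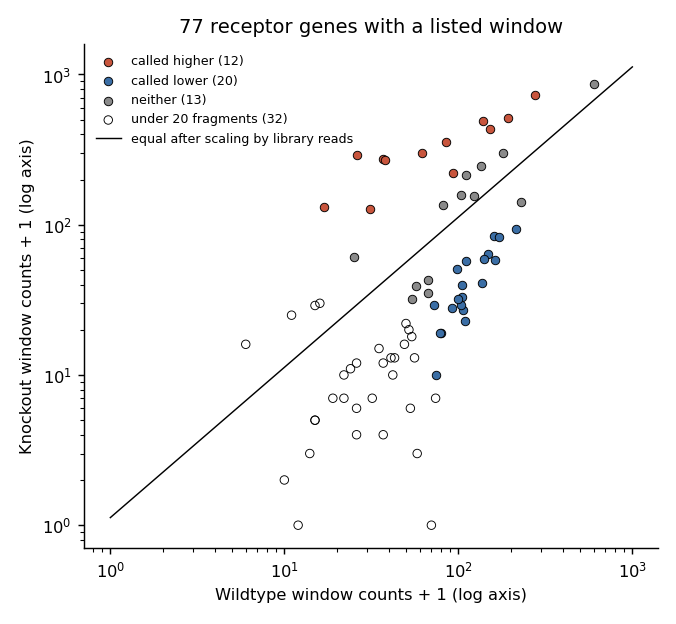
Knockout counts (vertical axis) are drawn against wildtype counts (horizontal axis) for the 77 receptors with a listed window, summed over windows, with 1 added and both axes logarithmic. By the rule of the calls the 12 higher receptors lie above the line of equal scaled counts and the 20 lower ones below it. The higher ones had 16 to 275 wildtype counts and the lower ones 9 to 93 knockout counts.

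The promoter table of RefSeq (GRCm38.p6) gave the strand and 300 bases, 250 before and 50 from the annotated start, for 186 of the 222 receptors, in 187 entries. In 130 entries the annotated start was the letters ATG, so these stretches mostly show the bases before the coding sequence, and the start of transcription may lie farther away. Promoters of these receptors were poor in CpG, with a median of 1 and a maximum of 7 CpGs, and 67 (35.8%) had none, against a median of 7 CpGs and 5.43% without any over all 32851 entries. The other Olfr entries had a median of 1 CpG and 32.7% without any. The stretches of 4 receptors are shown to let the CpGs be seen, which are in capitals. Olfr1009 and Olfr52 are higher receptors (chr2:85721157-85721456, plus strand, and chr2:86182060-86182359, minus strand). Olfr1026 and Olfr154 are lower ones (chr2:85923020-85923319, plus strand, and chr2:85664406-85664705, minus strand).
Olfr1009: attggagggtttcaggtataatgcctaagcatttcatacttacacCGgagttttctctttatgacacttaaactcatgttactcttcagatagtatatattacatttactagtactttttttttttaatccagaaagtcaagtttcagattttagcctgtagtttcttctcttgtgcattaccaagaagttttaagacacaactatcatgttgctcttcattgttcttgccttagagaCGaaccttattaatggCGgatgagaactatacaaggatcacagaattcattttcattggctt
Olfr52: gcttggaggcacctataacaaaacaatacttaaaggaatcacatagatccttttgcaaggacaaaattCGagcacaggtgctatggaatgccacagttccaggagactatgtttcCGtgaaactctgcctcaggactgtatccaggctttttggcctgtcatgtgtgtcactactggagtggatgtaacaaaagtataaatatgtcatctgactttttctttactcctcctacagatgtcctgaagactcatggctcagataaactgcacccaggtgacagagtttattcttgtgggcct
Olfr1026: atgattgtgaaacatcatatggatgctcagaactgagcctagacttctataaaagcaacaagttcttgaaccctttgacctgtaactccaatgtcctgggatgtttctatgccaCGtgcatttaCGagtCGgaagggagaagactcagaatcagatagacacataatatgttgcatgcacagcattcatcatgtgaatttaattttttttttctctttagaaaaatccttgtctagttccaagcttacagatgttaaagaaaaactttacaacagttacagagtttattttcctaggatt
Olfr154: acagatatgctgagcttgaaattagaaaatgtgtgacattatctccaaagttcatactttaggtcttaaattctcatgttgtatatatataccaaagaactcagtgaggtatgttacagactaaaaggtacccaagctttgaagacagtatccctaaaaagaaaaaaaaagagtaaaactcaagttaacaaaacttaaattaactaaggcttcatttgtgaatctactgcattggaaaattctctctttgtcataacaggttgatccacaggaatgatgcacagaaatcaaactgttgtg

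Olfr1009 and Olfr1026 hold 3 CpGs each in these bases, Olfr52 holds 2 and Olfr154 none. Of the 4 stretches, that of Olfr1026 alone overlapped listed windows, 2 in number, with 52 wildtype and 7 knockout counts. Over all receptors 10 promoter stretches overlapped a listed window, and 2 of them were higher, those of Olfr1057 and Olfr1062, and 8 lower. Motifs were sought on both strands. TCCTGCNA was found in 3 of 187 stretches (1.60%), those of Olfr1015, Olfr1112 and Olfr1212, against 2.89% of the other Olfr entries and 4.96% of all entries. CGCG, a site that Kaiso binds when methylated, was found in 1 (0.535%), that of Olfr141, against 0.920% of the other Olfr entries and 38.0% of all. None of these 4 receptors had a listed window in that stretch. TAATTA, a site of homeodomain proteins such as Lhx2, was found in 46 (24.6%), against 17.1% of the other Olfr entries and 5.29% of all. The palindromic site of Ebf proteins was found in 0 of 187, against 0.657% of the other Olfr entries and 0.904% of all.

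Regions of 1 kb on each side of the annotated start also gave calls in both directions. Of 186 such regions 52 had a listed window and 27 the minimum, with 6 called higher and 12 lower, where the background over 5613 genes was 51.7% higher and 13.9% lower. Among the other Olfr genes 61 of 200 such regions were called higher and 55 lower. The median log2 ratio was -0.82 (order-statistic interval over genes -1.58 to 0.70) for these receptors, 0.45 for the other Olfr genes and 1.14 for all genes. Windows with a known strand were most frequent inside the gene. Between 250 and 500 bp from the start lay 46 windows, 17 higher and 29 lower, and between 500 and 750 bp 41, 14 higher and 27 lower. Between the start and 250 bp before it lay 5, all of them lower.

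By place relative to the gene, 68 of 201 windows within spans were higher in the knockout library (33.8%, Clopper-Pearson interval 27.3 to 40.8%). Downstream of the genes 28 of 39 were higher (71.8%, 55.1 to 85%), and upstream 1 of 8. In the flanks of receptors without a known strand it was 0 of 7. The 28 downstream windows came from 6 receptors, and the 6 of Olfr1270 among them lie in the span of Olfr32. Windows shared by 2 receptors are counted for each here. CpG number moved with place: the mean was 2.79 per window downstream, 1.86 within spans and 1.63 upstream, and its part in the difference was not tested.

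Over all 247 windows 91 were higher in the knockout library, 36.8% (30.8 to 43.2%), against 62.2% of 2212 windows of the other Olfr genes and 56.5% of the whole table. The receptors' windows held 1.95 CpGs on average, against 2.28 and 2.32. Within windows of 1 CpG 23 of 101 were higher (22.8%, 15.0 to 32.2%), against 45.7% in other Olfr genes and 37.8% in the table. With 2 CpGs it was 31 of 93 (33.3%, 23.9 to 43.9%), against 57.6% and 49.2%. With 3 CpGs 19 of 32 were higher (59.4%, 40.6 to 76.3%), against 74.7% and 71.0%, and with 4 CpGs 10 of 13. All 8 windows of 5 or more CpGs were higher. The shares at 1 and 2 CpGs lay below those of both other sets by more than their intervals, which treat windows as independent. Windows of the receptors that were higher had a median log2 ratio of 1.42, against 0.68 in the table, and those that were lower -1.87, against -1.67.

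**Figure D4:**
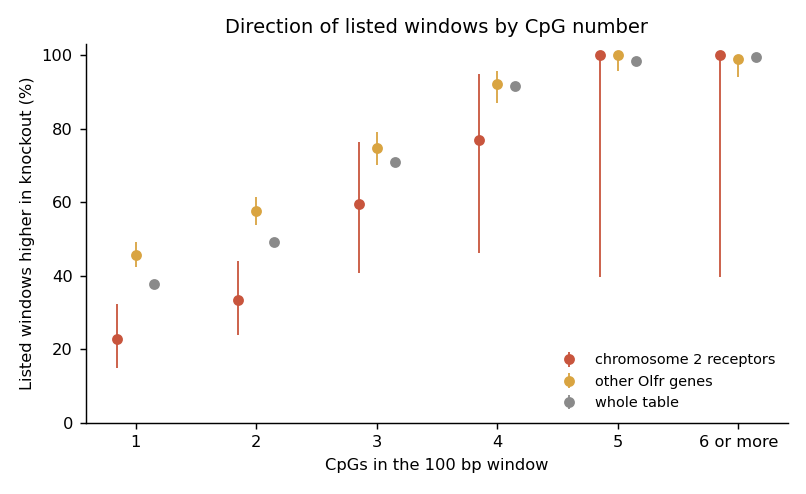
The percent of windows with a ratio above equality (vertical axis) is drawn by the number of CpGs in the window (horizontal axis) for the chromosome 2 receptors, the other Olfr genes and the whole table, with 95% Clopper-Pearson intervals. The receptors lie below the other sets at 1 and 2 CpGs, with 22.8% and 33.3%, and all 3 sets rise with CpG number.

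Along the cluster lower windows outnumbered higher ones in all stretches of 1 Mb but that from 86 to 87 Mb. In the first Mb, from 85 to 86, 6 of 38 windows were higher, with 992 wildtype and 691 knockout counts (log2 ratio -0.69, -0.98 to -0.40), and 1 of 8 receptors was called higher and 5 lower. From 86 to 87 Mb 41 of 72 windows were higher (0.31, 0.15 to 0.47), with 4 of 13 receptors higher and 2 lower. From 87 to 88 Mb 3 of 21 were higher (-1.18, -1.65 to -0.73), with 0 of 4 receptors higher and 3 lower. Over the whole cluster the shares called were 26.7% higher and 44.4% lower, beside 9.64% and 5.64% over all protein-coding genes. From 88 to 89 Mb it was 11 of 27 windows (0.36, 0.07 to 0.64), from 89 to 90 Mb 15 of 49 (-0.08, -0.34 to 0.19), and from 90 to 91 Mb 15 of 40 (0.31, 0.06 to 0.57). Scaling by autosomal counts moves every ratio by -0.27, which leaves the positive sums of these stretches near 0. The stretch from 87 to 88 Mb holds 47 receptors, of which 9 had a listed window, against 22 of 49 in the stretch before it. Neighbours could go opposite ways: Olfr1264 was higher and Olfr1265, the next receptor along, was lower.

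**Figure D5:**
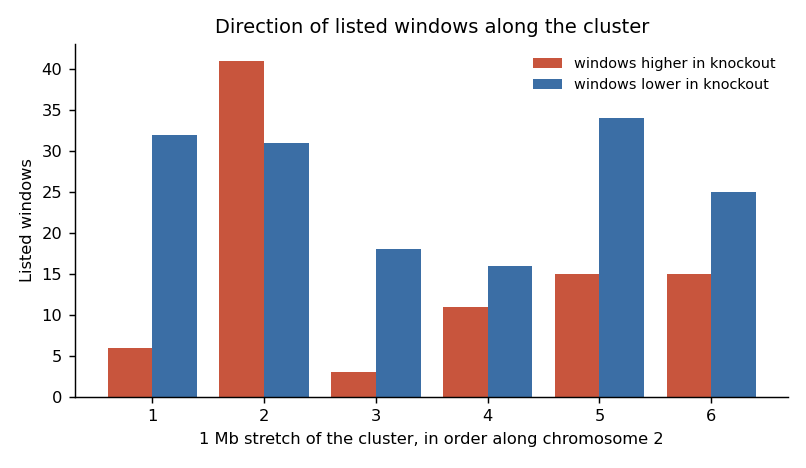
Numbers of receptor windows above and below equality (vertical axis) are drawn for 6 stretches of 1 Mb in order along chromosome 2 (horizontal axis). The second stretch, with 41 higher and 31 lower windows, is the one where higher windows outnumber lower ones.

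Of the 18 protein-coding genes of the interval without an Olfr symbol 16 had a listed window. Of these 1 was called higher (6.25%) and 2 lower (12.5%), beside 9.64% and 5.64% over all protein-coding genes. Their median log2 ratio was 0.22. Aplnr, the receptor gene of the peptide apelin, was higher with 115 wildtype and 641 knockout counts (2.31, 1.72 to 2.92). Pramel7 and Pramel6, genes of a reproduction-linked family that lie among the receptors, were lower with ratios of -1.43 (-2.34 to -0.64) and -2.73 (-4.38 to -1.26).

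Genes that act with olfactory receptors were read from a list of 34 genes for signalling, receptor transport and receptor choice. Of these 33 reached 20 fragments over their spans, 6 were higher and 0 lower, beside the shares of 9.64% and 5.64% over all genes. The median log2 ratio was 0.30 (order-statistic interval over genes 0.22 to 0.38), next to 0.31 for all protein-coding genes. Rtp2 and Rtp1, which carry receptors to the cell surface, went from 395 to 1378 counts (1.63, 1.30 to 1.97) and from 107 to 430 (1.84, 1.21 to 2.50). Gnas, an imprinted gene of a G protein subunit, had 1.27 (1.15 to 1.38), Emx2, a homeobox gene, 1.21 (0.89 to 1.54), and Cnga4, a subunit of the olfactory ion channel opened by cyclic nucleotides, 1.21 (0.88 to 1.55). Atf5, a transcription factor of the receptor feedback signal, had 1.06 (0.37 to 1.81). Kdm1a, a histone demethylase needed to start receptor choice, had 1188 wildtype and 691 knockout counts and was neither at -0.95 (-1.23 to -0.67). Cnga2, the main subunit of that channel, had no listed window. In the regions around the starts 10 of these genes reached the minimum, and 7 were higher and 1 lower, Stoml3 with 386 and 205 counts (-1.08, -1.60 to -0.58), beside 51.7% and 13.9% over all genes.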

How the data were processed

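MBD2-captured testis DNA was analysed from 1 wildtype and 1 Kaiso knockout library, grouped by the genotype label. Bowtie2 2.2.6, edgeR and mm10 are named in the submitters' processing notes. The deposited table holds, per the file headers, a count and an RPKM for each library and 100 bp window. The authors' RPKM and counts gave the library reads. The deposited relative methylation score and CpG number of each window were read too, and the scale of that score is not given. The authors' log2 fold change (wildtype over knockout) lay 0.13 from the RPKM ratio when turned round. The deposited p-value selected the listed windows. Read extension and multiple alignments are not given in the sources used here, so reads may be shared between similar receptors.

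Genes came from the GRCm38.p6 annotation, the assembly of mm10, and strand from the RefSeq promoter table. Log2 ratios, Clopper-Pearson intervals on fragments and calls (20 fragments, 2-fold) were computed in Python 3.11.15 with scipy 1.17.1. The calls were also run on simulated fragments across protein-coding genes. These were drawn from the binomial model of the intervals, without selection of windows on p, PCR copies or variation between animals. The simulation thus checks the computation and not the rate of false calls in these data. Named receptors were the 10 highest and 10 lowest by interval bound, the 3 with the most and the 3 with the fewest windows per kb, the first and last, those with a library at 0, and the 3 nearest the median. Pathway genes were the 6 with the bound farthest from 0. Other receptors, Atf5, Cnga2 and Stoml3 were named after their values were seen, to account for calls and genes without windows. The members, lists and rules were chosen with earlier results of these data known. Another 10 columns of values per sample or group were not used.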

Additional observations from a re-analysis of the deposited data

How the results depend on the processing

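The 12 receptors called higher numbered between 8 and 14 under all 9 alternatives, and the 20 called lower were within 1.5 times that number except for 10 with scaling within CpG classes and 35 with 2 windows per fragment. The number of receptors with the minimum changed too. It went from 45 to 61 with 2 windows per fragment or a minimum of 10 fragments, and to 33 with p at most 0.01. The shares over all genes under the alternatives are not given here. The summed log2 ratio over all receptor windows, 0.05, was -0.22 with autosomal counts, 0.18 with the authors' scaling, 0.50 within CpG classes, -0.048 over gene spans alone, 0.30 with windows of p at most 0.01 and 0.17 with windows of at least 20 counts. The share of higher windows, 36.8%, was 43.9% and 44.0% under these last 2 settings. The median of -0.88 lay between -1.23 and -0.23, except for 0.44 with p at most 0.01. The 25 named receptors with the minimum were recomputed in 220 values, of which 209 kept the call. The ratio of 1 receptor turned round: Olfr1270, at -1.70 over its span alone. Olfr52, Olfr1166 and Olfr1097 had no listed window within their spans, so they had no call there and are not among these values. Olfr994 and Olfr1030 likewise had no window with p at most 0.01. Olfr1166 (0.96) and Olfr32 (0.96) lost their call with autosomal counts, Olfr1026 (-1.70) over its span alone, Olfr1258 (-1.75) with p at most 0.01 and Olfr1260 (-2.75) with windows of at least 20 counts. Olfr1157, Olfr1265 and Olfr1052 lost theirs within CpG classes. Olfr1033 gained a call with autosomal counts and at 1.5-fold. Under the settings named, Olfr1026, Olfr1258 and Olfr1260 fell under the 20-fragment minimum, with ratios still beyond 2-fold. Olfr1270 fell under that minimum too over its span alone, so its turned ratio is not a call in the other direction. Why the ratios moved was not tested. No paired analysis was possible because each genotype had 1 library, and leaving out a replicate could not be done for the same reason. Depth limits the 32 receptors under 20 fragments most.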

Other observations

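The interval also holds 71 Olfr pseudogenes, of which 13 had a listed window and 8 the minimum. Of these 0 were higher and 3 lower, beside 9.64% and 5.64% over all protein-coding genes and 26.6% and 27.3% over the other Olfr genes. With 8 read, the calls are too few to give a direction. The lower ones were Olfr1010 with 126 wildtype and 39 knockout counts (log2 ratio -1.86, -3.04 to -0.79), Olfr1177-ps with 70 and 23 (-1.77, -3.37 to -0.36), and Olfr1268-ps1 with 128 and 61 (-1.24, -2.25 to -0.33). Olfr1059-ps1 (246 and 490 counts, 0.83) and Olfr1064-ps1 (279 and 494 counts, 0.66) had more knockout counts and were under 2-fold. Olfr1038-ps had 57 wildtype and 0 knockout counts in 4 windows. Over the 40 pseudogene windows outside the receptors 14 were higher in the knockout library, 35.0% (20.6 to 51.7%), beside 36.8% for the receptors.

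The rest of the interval, 2799 windows outside the receptor regions, had 63.2% of windows higher (61.3 to 65.0%) and a log2 ratio of 0.40, with 2.45 CpGs per window against 1.95 in the receptors. The authors' relative methylation score had medians of 0.151 in wildtype and 0.0920 in the knockout over receptor windows, and of 0.171 and 0.153 over the rest of the interval.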
